A study of Mus musculus with 8 samples.

Results

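Hepatic expression of 10 genes that make, conjugate, carry or control bile acids was compared between db/db mice given control and those given AF1 peptide. The genes were taken by their symbols, with earlier results of these data known. They were Cyp7a1, Cyp8b1, Cyp27a1 and Cyp7b1 (synthesis), Slc27a5 and Baat (conjugation), Slc10a1 and Abcb11 (transport), and Nr1h4 and Nr0b2 (nuclear receptor control). All 10 were found among the 21532 genes of the table, and all 10 were among the 15989 genes with enough reads to be tested. The study asked how a peptide from ERα, AF1 peptide, alters the liver of diabetic mice. Liver RNA-Seq was made from 8 male db/db mice, with 4 mice given control and 4 mice given AF1 peptide. Both groups carried the db mutation, which removes the signalling form of the leptin receptor, so that every mouse was obese and diabetic and no lean liver was included. The injections, control or AF1 peptide with its cell-penetrating TAT tag, were given behind the eye at 5 mg/kg, started in mice 8 weeks old and went on for 5 weeks with 2 injections in each week. What the control consisted of, the hour of collection and the feeding state of the mice used for RNA-Seq are not given in the sources used here.

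Hepatocytes turn cholesterol into bile acids by a classic pathway that begins with 7α-hydroxylation by CYP7A1 and an alternative pathway that begins with side-chain oxidation by CYP27A1. The bile acids are joined to taurine or glycine, secreted into bile across the canalicular membrane, reabsorbed in the intestine and taken up again by hepatocytes from portal blood. Bile acids activate FXR, the product of Nr1h4, which induces the corepressor SHP (Nr0b2) and the export pump BSEP (Abcb11). SHP in turn lowers transcription of Cyp7a1 and Cyp8b1, which makes the pathway a classic feedback circuit, and several of its genes follow the time of day and feeding.

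The promoters of the genes through which this circuit is known to act are shown here with that of Cyp27a1, the single member with an unadjusted p under 0.05. Each is the 250 bases upstream of the start site given by RefSeq for GRCm38.p6, written 5′ to 3′ on the gene's strand. RefSeq promoters were at hand for 6 of the 10 genes, and none for Cyp7a1, Cyp7b1, Slc27a5 or Baat. Capitals mark the letters searched for, on both strands, and a match describes the sequence only.
Abcb11 (chr2:69342617-69342866, minus strand): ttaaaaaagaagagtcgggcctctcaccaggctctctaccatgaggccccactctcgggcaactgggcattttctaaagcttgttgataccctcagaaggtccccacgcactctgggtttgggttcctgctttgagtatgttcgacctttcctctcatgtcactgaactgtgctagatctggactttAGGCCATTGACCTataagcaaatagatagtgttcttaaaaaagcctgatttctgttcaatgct
Nr0b2 (chr4:133553126-133553375, plus strand): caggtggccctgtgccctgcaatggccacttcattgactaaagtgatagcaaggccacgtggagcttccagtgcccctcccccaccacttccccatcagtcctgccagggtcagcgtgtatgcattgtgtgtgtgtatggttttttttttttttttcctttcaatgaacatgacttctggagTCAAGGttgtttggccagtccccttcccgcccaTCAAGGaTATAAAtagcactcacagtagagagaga
Cyp8b1 (chr9:121916306-121916555, minus strand): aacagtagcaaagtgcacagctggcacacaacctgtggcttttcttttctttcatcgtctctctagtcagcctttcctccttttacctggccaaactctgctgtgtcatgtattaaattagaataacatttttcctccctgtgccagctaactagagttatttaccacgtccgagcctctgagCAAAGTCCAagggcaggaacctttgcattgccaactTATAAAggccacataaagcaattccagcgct
Cyp27a1 (chr1:74713285-74713534, plus strand): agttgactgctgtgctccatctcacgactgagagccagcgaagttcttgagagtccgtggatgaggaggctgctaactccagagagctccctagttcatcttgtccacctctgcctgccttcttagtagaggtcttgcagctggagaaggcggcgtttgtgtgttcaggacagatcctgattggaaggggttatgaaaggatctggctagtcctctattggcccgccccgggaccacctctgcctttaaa
The Abcb11 promoter held AGGCCATTGACCT at bases -63 to -51 before the start. It matches the inverted repeat AGGNCANTGNCCT, the form bound by FXR with RXR, which was present in 0.0852% of 32851 mouse promoters. The Nr0b2 promoter held TCAAGG, the core bound by NR5A2 (LRH-1), at -68 to -63 and at -35 to -30, and TATAAA at -28 to -23. The inverted repeat was not found in these 250 bases of Nr0b2, and sequence farther from the start was not searched. TCAAGG was present in 12.5% of all promoters of this length and TATAAA in 12.4%. The Cyp8b1 promoter held the HNF4A-type site CAAAGTCCA at -67 to -59, present in 0.384% of promoters, and TATAAA at -31 to -26. The Cyp27a1 promoter held none of the letters searched. Of the promoters not printed, that of Nr1h4 held the nuclear receptor hexamer AGGTCA on the reverse strand at -214 to -209, and of the 2 promoters of Slc10a1 the first held AGGTCA at -87 to -82 and the second TATAAA on the reverse strand. AGGTCA was present in 14% of all promoters, and its reverse complement also forms the last 6 bases of the Abcb11 repeat.

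Sequencing depth was 35260283 to 45117528 recovered reads in control mice and 23031880 to 43978158 in AF1 peptide-treated mice (two-sided exact permutation test, p = 0.686). The library of AF1 peptide replicate 1 stood apart, at 74.2 on a first principal component where the other 7 mice lay between -21.8 and 2.33. It also had the lowest mitochondrial share of reads, 20.8%, against 22.4 to 34.3% in control mice. The share was 37.8, 34.3 and 36.1% in AF1 peptide replicates 2, 3 and 4. Between the groups the share gave p = 0.4 (two-sided exact permutation test). The summed normalized read count of the 9 hepatocyte markers, from 2913100 to 3084470 in control mice and from 2291830 to 3165920 with AF1 peptide, was lowest in the same mouse, but its genes went both ways there, with 3 of them (Alb, Ttr and Apoa1) the lowest of all mice and 5 (Serpina1a, Tat, Cps1, Fgb and Ahsg) the highest. The mouse was the lowest for 5 of the 6 Kupffer cell markers (sum 1946, against 4341 to 5473 in control mice) and for 3 of the 9 cholangiocyte markers, whose sum (915, against 1331 to 1982) was mostly Spp1. No marker of these lists was at 0 in every mouse, and the part of cell composition in the results was not tested. In bulk liver, fewer cells of a type and less RNA per cell cannot be told apart. Values without this mouse are given for each named gene whose direction or call it changed.

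No bile acid gene passed the rule used here for a changed gene, an unadjusted limma p under 0.05 with more than a 1.3-fold change, which 3.69% of all tested genes passed. Without the fold threshold, 1 of the 10 genes passed and it was higher with AF1 peptide. This was Cyp27a1, at 1.28-fold. Among all tested genes 6.19% had an unadjusted p under 0.05, with 3.16% higher and 3.03% lower, so that 1 of 10 does not set these genes apart. After Benjamini-Hochberg adjustment in limma, 0 of the 15989 genes had an adjusted p under 0.05, and the smallest was 0.763. At the same threshold edgeR gave 0 genes and DESeq2 gave 3, against 990 genes with an unadjusted p under 0.05 in limma. The values of control and AF1 peptide-treated mice overlapped for all 10 bile acid genes. Among all tested genes 3.9% had groups that did not overlap, so that this does not set the 10 genes apart either. By direction, 6 of the 10 genes were higher on average and 4 were lower with AF1 peptide, with a median log2 fold change of 0.12 against -0.0083 over all tested genes. With libraries scaled to equal totals, 5 were higher and 5 lower. The share of higher genes over all tested genes was 48.2% in the main fit and 31.2% with equal totals. It was 47.7% with equal totals when mitochondrial genes were left out of the totals.

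**Figure D1:**
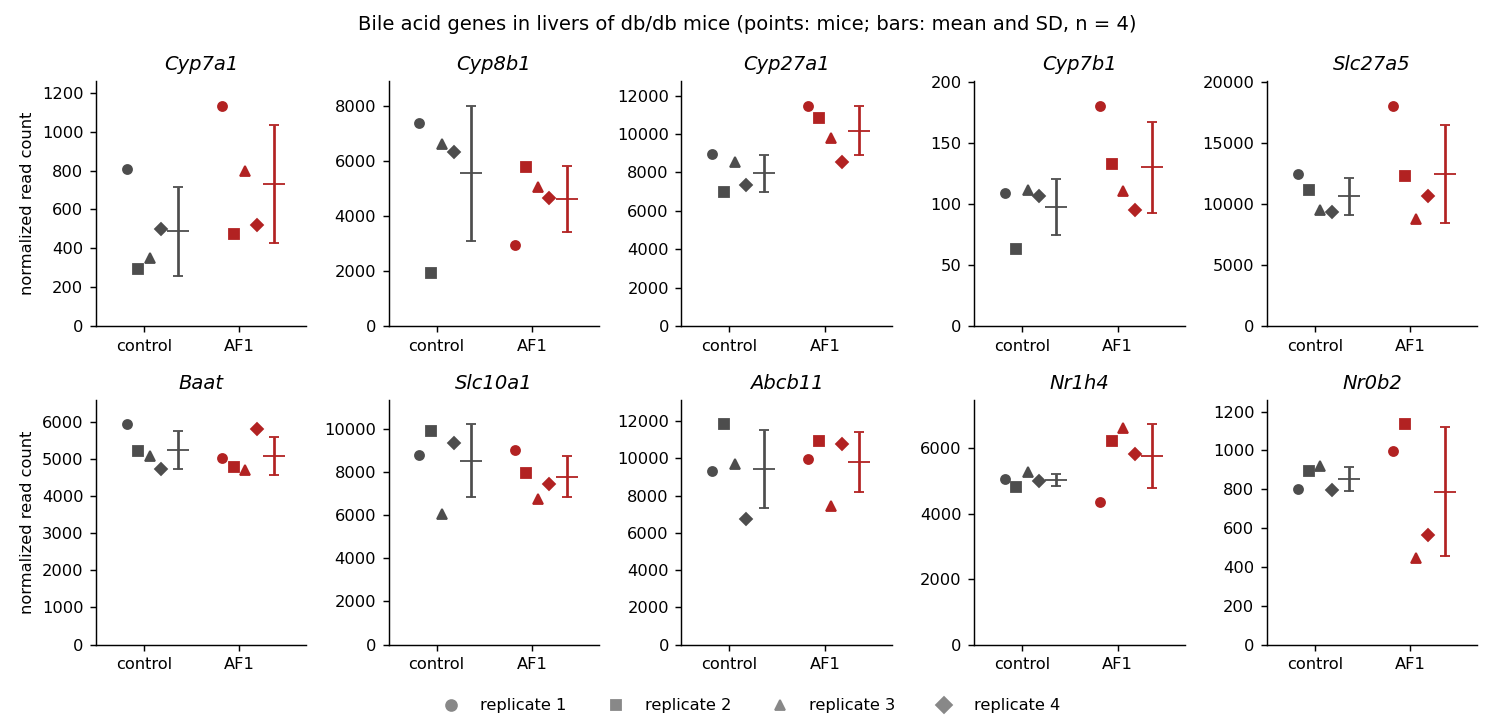
Normalized read count of each of the 10 bile acid genes (y axes, linear from 0) in control (grey) and AF1 peptide-treated (red) mice, with 1 point per mouse, the marker shape giving the replicate number, and a bar for the mean and SD of 4 mice. The groups overlap in every panel. For Cyp27a1, 3 of the 4 red points lie above all grey points, and for Nr0b2 the red points are split above and below a tight set of grey points.

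Of the classic pathway, Cyp7a1 encodes cholesterol 7α-hydroxylase, the rate-limiting enzyme of bile acid synthesis. Its normalized read count, the number of reads divided by the size factor of the library, was 807, 293, 351 and 497 in control replicates 1 to 4, and 1135, 475, 798 and 518 in AF1 peptide replicates 1 to 4. The mean was 487 ± 229.7 in control mice and 731 ± 305 in AF1 peptide-treated mice (SD, n = 4 each). The highest mouse was treated and the 2 lowest were controls, but control replicate 1 lay above 3 of the 4 treated mice. Cyp7a1 was 1.52-fold higher on average, a log2 fold change of 0.61 with a standard error of 0.34 and a 95% confidence interval of -0.15 to 1.36. In limma the unadjusted p was 0.103 and the Benjamini-Hochberg adjusted p 0.766, so that a difference was not shown. Cyp7a1 was higher in all 8 fits that left out a mouse and under all 12 other settings, but the size of the difference moved with single mice. Without control replicate 1 the log2 fold change was 0.89 with an unadjusted limma p of 0.0164, and without AF1 peptide replicate 1 it was 0.37 with a p of 0.242. Spread within a group was wide for this gene, with the highest control mouse 2.75-fold above the lowest.

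Cyp8b1 encodes the sterol 12α-hydroxylase that directs the pathway to cholic acid. Its normalized read count was 7381, 1939, 6607 and 6324 in control replicates 1 to 4 and 2950, 5777, 5045 and 4653 in the treated mice. Control replicate 2 was far below the other controls, AF1 peptide replicate 1 was the lowest treated mouse, and the other 6 mice ranged from 4653 to 7381. Means were 5563 ± 2457 in control and 4606 ± 1199 in treated mice (SD, n = 4 each). The log2 fold change was -0.14 with a standard error of 0.39, and the limma p was 0.716 unadjusted and 0.949 after Benjamini-Hochberg adjustment. The 95% confidence interval ran from 0.498-fold to 1.64-fold, so that differences of that size in either direction were not excluded. Direction and call both moved with single mice. Without control replicate 2 Cyp8b1 was lower by limma (log2 fold change -0.60, unadjusted p = 0.0189), whereas the log2 fold change was 0.048 without control replicate 1 and 0.055 without AF1 peptide replicate 1.

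Among enzymes of the alternative pathway, Cyp27a1 gave the smallest p of the 10 genes. It encodes the mitochondrial sterol 27-hydroxylase, which oxidizes the cholesterol side chain in both pathways. Normalized read counts were 8967, 6957, 8547 and 7339 in control mice and 11478, 10825, 9799 and 8541 in AF1 peptide-treated mice. Replicates 1 to 3 of the treated group lay above every control mouse, and replicate 4 lay within the control range. The mean was 7952 ± 957 in control and 10161 ± 1282 in treated mice (SD, n = 4 each), a log2 fold change of 0.35 with a standard error of 0.13 and an interval of 0.06 to 0.64. By limma the unadjusted p was 0.0224 and the Benjamini-Hochberg adjusted p 0.763. The direction held with each mouse left out, with log2 fold changes from 0.29 to 0.43. The unadjusted p was above 0.05 without control replicate 2 (0.0691), without control replicate 4 (0.0577) or without AF1 peptide replicate 2 (0.0592). It was 0.0105 to 0.041 in the other 5 such fits. Of these, Cyp27a1 passed the 1.3-fold rule without control replicate 1 (log2 fold change 0.41) or 3 (0.39) or AF1 peptide replicate 4 (0.43). With libraries scaled to equal totals the unadjusted p was 0.126, and 0.0141 when mitochondrial genes were left out of the totals.

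Cyp7b1 encodes the oxysterol 7α-hydroxylase that follows CYP27A1 in the alternative pathway. It was the least abundant of the 10 genes, with 64 to 194 recovered reads per mouse. Its normalized read count was 109.6, 63.0, 111 and 106 in control mice and 181, 133, 111 and 95.5 in treated mice. AF1 peptide replicates 1 and 2 were above all controls, replicate 3 was level with the highest controls and replicate 4 was below 3 of them. The mean was 97.6 ± 23.1 in control and 130.3 ± 37.2 in treated mice (SD, n = 4 each), with a log2 fold change of 0.41 and an interval of -0.13 to 0.95. The limma p was 0.122 unadjusted and 0.774 after Benjamini-Hochberg adjustment. Without control replicate 2, the low control mouse, the log2 fold change was 0.21, and without AF1 peptide replicate 1, the high treated mouse, it was 0.24.

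Conjugation needs Slc27a5, the bile acid CoA ligase, and Baat, the transferase that joins the activated bile acid to taurine or glycine. Slc27a5 had normalized read counts of 12474, 11159, 9481 and 9371 in control mice and 18079, 12309, 8801 and 10660.0 in treated mice. AF1 peptide replicate 1 was the highest of all mice and AF1 peptide replicate 3 the lowest, while the controls lay between them. The means were 10621 ± 1482 in control and 12462 ± 4009 in treated mice (SD, n = 4 each), and the log2 fold change was 0.19 (interval -0.27 to 0.64, limma unadjusted p = 0.379, adjusted p = 0.854). Without AF1 peptide replicate 1 the log2 fold change was -0.0074. Baat was among the steadiest of the 10 genes in both groups, with a coefficient of variation of 9.82% in control and 9.91% in treated mice. Its normalized read count was 5938, 5214, 5071 and 4714 in control mice and 5012, 4789, 4692 and 5800.2 in treated mice. Of the treated mice, only AF1 peptide replicate 3 fell outside the range of the controls. The log2 fold change of Baat was -0.045, and its interval of -0.29 to 0.20 leaves room for changes between 0.818-fold and 1.15-fold (limma unadjusted p = 0.692, adjusted p = 0.942). Without control replicate 1 the log2 fold change of Baat was 0.017.

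For transport, Slc10a1 encodes NTCP, the sodium-dependent carrier that takes conjugated bile acids up from blood. It had normalized read counts of 8808, 9911, 6077 and 9357 in control mice and 9025, 7978, 6753 and 7447 in treated mice. All treated mice lay inside the range of the controls, whose replicate 3 was the lowest of all. The mean was 8538 ± 1701 in control and 7801 ± 958 in treated mice (SD, n = 4 each), a log2 fold change of -0.11 with an interval of -0.48 to 0.25 (limma unadjusted p = 0.502, adjusted p = 0.895). The log2 fold change of Slc10a1 was -0.27 without control replicate 3 (limma unadjusted p = 0.0715) and -0.034 without control replicate 2. Abcb11 encodes BSEP, the canalicular pump that exports bile acids, and its promoter carries the FXR-type repeat shown above. Normalized read counts of Abcb11 were 9347, 11843, 9709 and 6767 in control mice and 9970.0, 10951, 7464 and 10794 in treated mice. Here too the treated mice all lay within the control range, from replicate 4 at the bottom to replicate 2 at the top. The log2 fold change of Abcb11 was 0.069 with an interval of -0.34 to 0.48 (limma unadjusted p = 0.716, adjusted p = 0.949), and it was -0.023 with libraries scaled to equal totals and -0.081 without control replicate 4. Exons of Abcb11 overlap those of Gm13613 and Gm13614 on the opposite strand. Whether strand was used in counting is not given in the sources used here, so reads of these genes may not be separable.

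For both nuclear receptors of the circuit, the treated mice were spread more widely than the control mice. Nr1h4 encodes FXR, the bile acid receptor. Its normalized read count was 5064, 4820.4, 5262 and 4994 in control mice and 4361, 6208, 6610.0 and 5825 in treated mice. Treated replicates 2 to 4 were above every control and treated replicate 1 was below every control. The mean was 5035 ± 183 in control and 5751 ± 981 in treated mice (SD, n = 4 each), and the log2 fold change was 0.18 with an interval of -0.12 to 0.47 (limma unadjusted p = 0.211, adjusted p = 0.801). Without AF1 peptide replicate 1, the mouse that stood apart across all genes, the log2 fold change was 0.30 and the unadjusted limma p was 0.00756. Nr1h4 did not pass the 1.3-fold rule in that fit. Leaving out this mouse gave 1603 of 15994 tested genes an unadjusted p under 0.05, against 990 of 15989 with all mice. The smallest adjusted p over all genes was then 0.452, so that a difference in Nr1h4 was not shown.

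Nr0b2 encodes SHP, the corepressor that FXR induces. Control mice held a narrow range of normalized read counts, 801, 894, 918 and 796, whereas the treated mice had 997, 1136, 446 and 565. AF1 peptide replicates 1 and 2 were above every control and replicates 3 and 4 were below every control. The coefficient of variation was 7.36% in control mice and 42.3% in treated mice, and for Nr1h4 it was 3.63% and 17.1%. A wider spread with AF1 peptide was not particular to these receptors. Coefficients of variation in control and treated mice were 13.9% and 32.2% for Slc27a5, 10.7% and 39.3% for Nr5a2, and 11.6% and 25% for Rxra. They went the other way for Cyp8b1 (44.2% and 26%) and Slc10a1 (19.9% and 12.3%). The difference in spread was not tested. The means of Nr0b2, 852 ± 62.7 in control and 786 ± 332 in treated mice (SD, n = 4 each), lay close together. Its log2 fold change was -0.22 with an interval of -0.80 to 0.36 (limma unadjusted p = 0.421, adjusted p = 0.866), and without AF1 peptide replicate 3 it was 0.018.

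**Figure D2:**
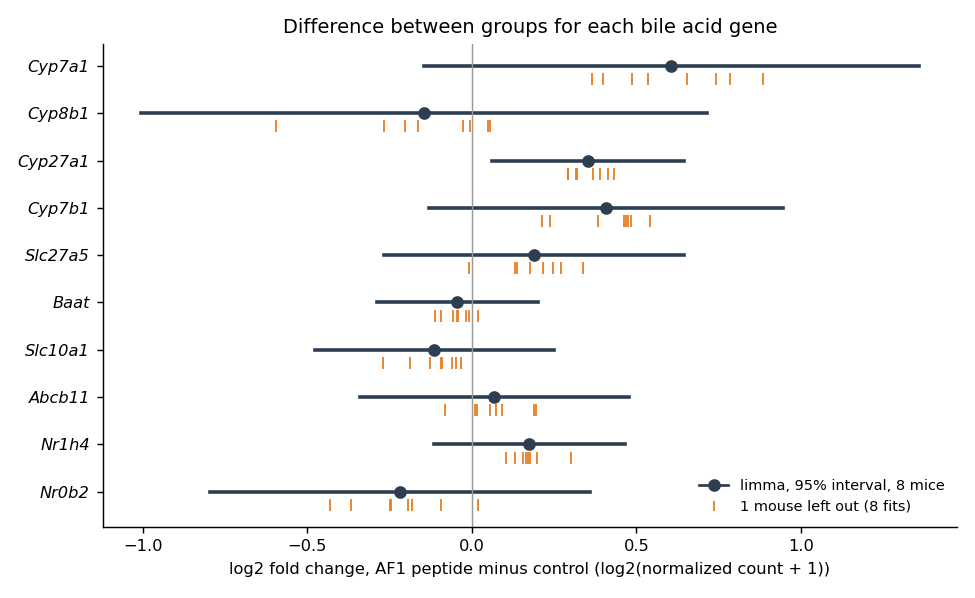
Log2 fold change of each bile acid gene (x axis, AF1 peptide minus control, from log2 of the normalized read count plus 1), with points for the limma estimate bars for the 95% confidence interval of all 8 mice, and orange ticks for the 8 fits that each leave out 1 mouse. The interval of Cyp27a1, 0.06 to 0.64, is the only 1 of the 10 that does not include 0, and that of Cyp8b1 is the widest.

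Across the mice, the high and low values of the 10 genes fell mostly on a few animals. AF1 peptide replicate 1 was the highest mouse for 4 genes, Cyp7a1, Cyp27a1, Cyp7b1 and Slc27a5, and the lowest for Nr1h4. Relative to the control mean its log2 deviation was 1.33 for Cyp7a1, 0.92 for Cyp7b1 and 0.78 for Slc27a5, but -0.75 for Cyp8b1. Control replicate 2 was the lowest mouse for the 4 synthesis genes Cyp7a1, Cyp8b1, Cyp27a1 and Cyp7b1, and the highest for both transporters. Its log2 deviation was -1.35 for Cyp8b1 and -0.62 for Cyp7a1, and 0.36 for Abcb11. AF1 peptide replicate 3 was the lowest mouse for Slc27a5, Baat and Nr0b2 and the highest for Nr1h4, with a log2 deviation of -0.93 for Nr0b2. The summed markers of liver zones also varied between mice. The summed normalized read count of 8 pericentral markers was 99619.8 to 183069 in control and 101018 to 192273 in treated mice, and that of 7 periportal markers was 84375 to 97622 and 56879 to 181457. AF1 peptide replicate 1 had the highest sum of both lists and AF1 peptide replicate 3 the lowest periportal sum. The sums of control replicate 2, 165805 pericentral and 85374 periportal, were neither the highest nor the lowest. For single genes, AF1 peptide replicate 1 was the highest mouse for 5 of the 7 periportal markers, but of the 8 pericentral markers it was the highest for 3 (Cyp2e1, Oat and Slc1a2) and the lowest for 3 (Glul, Axin2 and Lgr5). The part of these zones in the values of the bile acid genes was not tested.

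**Figure D3:**
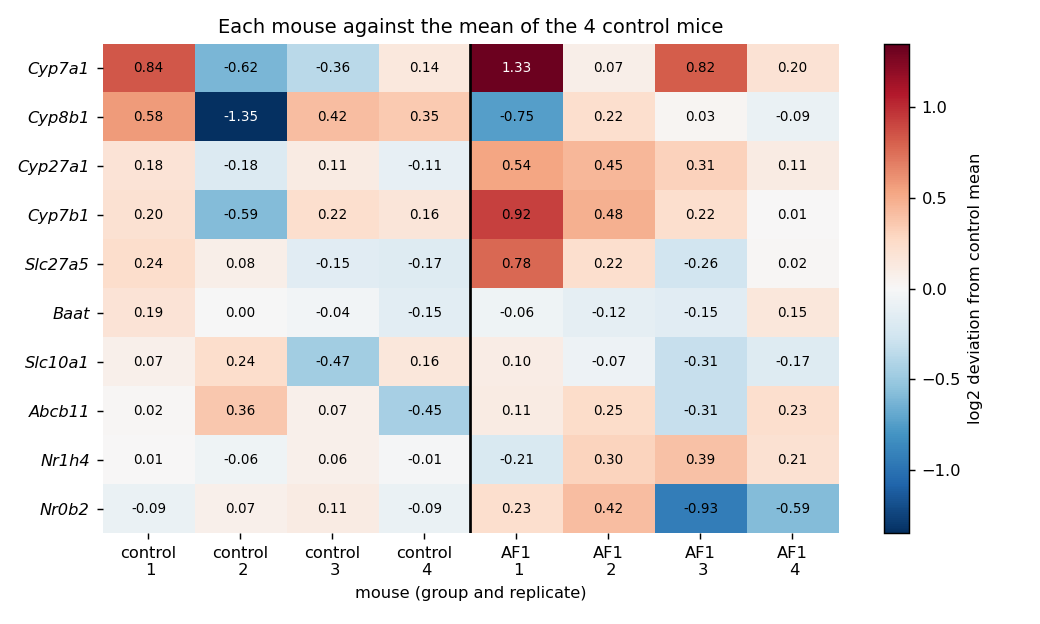
Log2 deviation of each bile acid gene (rows) in each mouse (columns) from the mean of the 4 control mice, red for higher and blue for lower, with the value printed in each cell. Cyp7a1 in AF1 peptide replicate 1 (1.33) and Cyp8b1 in control replicate 2 (-1.35) are the extremes, and the row of Baat stays close to 0.

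Ratios of 2 genes within a mouse do not depend on how libraries were scaled and were taken as a description, with no test. The ratio of Cyp8b1 to Cyp7a1 was 9.15, 6.61, 18.8 and 12.7 in control mice and 2.60, 12.2, 6.32 and 8.98 in treated mice. Treated replicates 1 and 3 lay below all controls and the other 2 within their range. The ratio of Nr0b2 to Nr1h4 was 0.158, 0.185, 0.174 and 0.159 in control mice. It was 0.229, 0.183, 0.0675 and 0.0970 in treated mice, so that treated replicate 1 lay above the controls and replicates 3 and 4 below them. Export over uptake, the ratio of Abcb11 to Slc10a1, was 1.06, 1.19, 1.60 and 0.723 in control mice and 1.10, 1.37, 1.11 and 1.45 in treated mice. All treated mice were inside the control range for this ratio. The groups also overlapped for the ratios of Cyp7b1 to Cyp7a1, Cyp27a1 to Cyp7a1 and Cyp7a1 to Nr0b2.

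**Figure D4:**
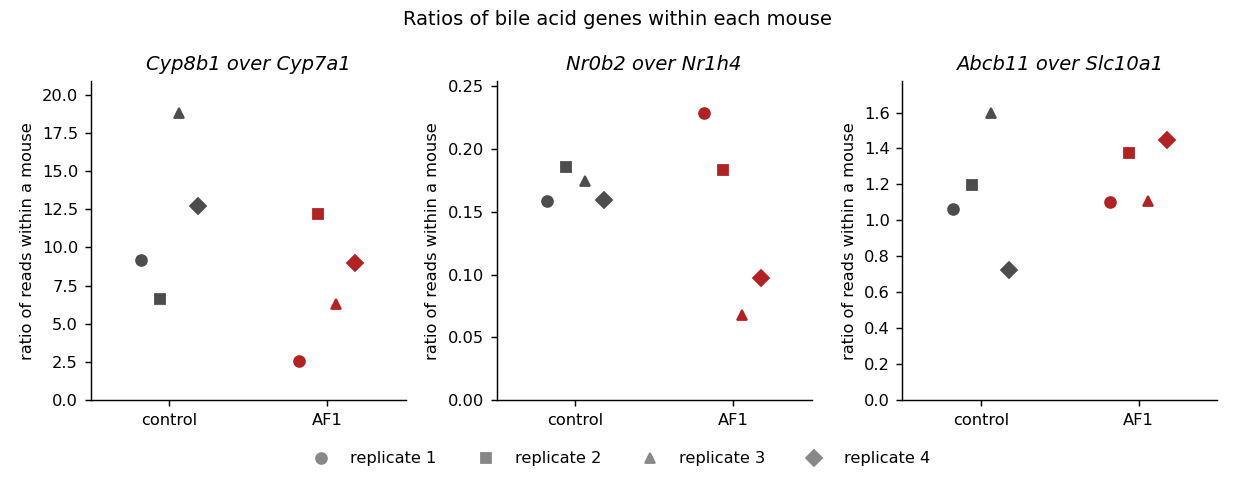
Ratio of normalized read counts of 2 bile acid genes within each mouse (y axes, linear from 0), with 1 point per mouse for control (grey) and AF1 peptide-treated (red) mice. Control and treated mice overlap for all ratios shown, and the ratio of Nr0b2 to Nr1h4 spans 0.158 to 0.185 in control mice and 0.0675 to 0.229 in treated mice.

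To compare levels between genes, normalized read counts were divided by the exon length of the gene in kilobases. Per kilobase, the control mean was 4559 ± 636 for Slc27a5, 4203 ± 506 for Cyp27a1 and 3883 ± 774 for Slc10a1 (SD, n = 4). Next came Cyp8b1 at 2853 ± 1260 and Baat at 2697 ± 265, both enzymes. The receptor Nr1h4 followed at 2186 ± 79.3 per kilobase, with the pump Abcb11 at 1830 ± 405. In this order each gene overlapped the next over the 4 control mice, except Baat and Nr1h4. The corepressor Nr0b2 was lower at 753 ± 55.4 per kilobase, Cyp7a1 at 117 ± 55.0 and Cyp7b1 at 45.1 ± 10.7, and none of these overlapped its neighbour. Cyp7a1, the rate-limiting enzyme, thus stood below all other genes but Cyp7b1. With AF1 peptide Cyp27a1 (5370 ± 678) and Slc27a5 (5349 ± 1721) were the highest per kilobase.

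The surrounding pathway was described with 5 lists of 67 genes, of which 63 were in the table and 62 were tested. Of these 62 genes, 32 were higher and 30 lower with AF1 peptide, with a median log2 fold change of 0.02. An unadjusted limma p under 0.05 was found for 3 higher genes and 1 lower gene, 1 passed the 1.3-fold rule as well, and 3 had groups that did not overlap. The shares over all tested genes were 6.19%, 3.69% and 3.9% for these rules, so that the counts were near or below those of all genes. In limma none of the 62 had an adjusted p under 0.05, the smallest being 0.763. Slc51a, Gpbar1, Vdr and Fgf15 were not analysed here, and Ch25h had too few reads to be tested.

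Of 16 tested regulators of bile acid synthesis, 11 were higher and 5 lower on average, and 9 and 7 with libraries scaled to equal totals. The share of higher genes over all tested genes was 48.2% and 31.2% under these scalings. Of the regulators 1 passed at an unadjusted p under 0.05. This was Nr1i2, which encodes PXR, a receptor for xenobiotics and bile acids. It had normalized read counts of 3649, 3200.5, 4099 and 4176 in control mice and 5072, 4606, 4773 and 4270.3 in treated mice. Every treated mouse was above every control mouse, and the log2 fold change was 0.31 (standard error 0.11, limma unadjusted p = 0.018, adjusted p = 0.763). With libraries scaled to equal totals the unadjusted p of Nr1i2 was 0.202, and without control replicate 2 it was 0.0575. Nr1h3, which encodes the oxysterol receptor LXRα, also had no overlap between the groups, at 2298 to 2474 in control and 2485 to 3316 in treated mice, with a log2 fold change of 0.17 and an unadjusted limma p of 0.141. Without AF1 peptide replicate 1 the log2 fold change of Nr1h3 was 0.075. Foxa2, a forkhead factor of hepatocytes, gave a log2 fold change of 0.26 (limma unadjusted p = 0.0551). Its unadjusted limma p was 0.0185 without AF1 peptide replicate 1 and 0.0458 without control replicate 1. In neither fit did any gene have an adjusted p under 0.05.

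Of the 15 tested transporters, 7 were higher and 8 lower. These counts were 4 and 11 with equal totals, where 31.2% of all tested genes were higher. At an unadjusted p under 0.05, 1 of the transporters passed. Tmem30a, the partner subunit of the canalicular lipid flippase ATP8B1, had normalized read counts of 1351, 1226, 1178 and 1219 in control mice and 1158, 1058, 791 and 1121 in treated mice. All treated mice were below all controls, with a log2 fold change of -0.28 (limma unadjusted p = 0.0484, adjusted p = 0.763). Its unadjusted p was above 0.05 without any single control mouse (0.0604 to 0.121) and without AF1 peptide replicate 2 (0.0668) or 3 (0.124), and the log2 fold change of Tmem30a was -0.16 without AF1 peptide replicate 3. Abcg5, a subunit of the sterol exporter, was 12327 in AF1 peptide replicate 1 and 3854 to 4435 in the other treated mice, against 3312 to 4921 in control mice. The log2 fold change of Abcg5 was 0.46 (limma unadjusted p = 0.197), and without AF1 peptide replicate 1 it was 0.056, with the other treated mice inside the control range. That of the conjugate exporter Abcc2 was -0.16 (limma unadjusted p = 0.128).

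Genes of side-chain cleavage and oxysterol synthesis were lower on average in 9 of 13 cases and higher in 4, and none had an unadjusted limma p under 0.05. With equal totals, where 31.2% of all tested genes were higher, 11 were lower and 2 higher. The smallest p was that of Scp2, the peroxisomal thiolase of side-chain cleavage, at 0.0886 with a log2 fold change of -0.32, and at 0.0455 without control replicate 3. The peroxisomal enzymes Acox2 (-0.29, limma unadjusted p = 0.127, adjusted p = 0.774) and Hsd17b4 (-0.22, limma unadjusted p = 0.202, adjusted p = 0.796) followed. Without AF1 peptide replicate 1 the log2 fold change of Acox2 was -0.42 (limma unadjusted p = 0.0135). In that fit 1603 of 15994 tested genes had an unadjusted p under 0.05, and none had an adjusted p under 0.05. Among 5 genes of bile acid hydroxylation and sulfation, 4 were higher and 1 lower (3 and 2 with equal totals), and none passed. The sulfotransferase Sult2a1 ranged from 264 to 4805 in treated mice, with AF1 peptide replicate 1 the highest, and from 392 to 985 in control mice (log2 fold change 0.67, limma unadjusted p = 0.382). Without AF1 peptide replicate 1 the log2 fold change of Sult2a1 was -0.11. Sult2a8, of the same family, had a log2 fold change of 0.34 (limma unadjusted p = 0.44, adjusted p = 0.871), and Cyp3a11, which hydroxylates bile acids, -0.42 (limma unadjusted p = 0.296). Without control replicate 2 the log2 fold change of Sult2a8 was -0.14, and without AF1 peptide replicate 3 that of Cyp3a11 was 0.0095.

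Clock genes, through which Cyp7a1 is known to cycle over the day, were split into 6 higher and 7 lower of 13 tested. Per2 was the single gene of the 5 lists that passed the 1.3-fold rule. It had 2069, 1818, 2396 and 2808 normalized reads in control mice and 3100.0, 2910, 3430.2 and 2439 in treated mice, and 3 of the 4 treated mice were above all controls. The log2 fold change of Per2 was 0.39 (limma unadjusted p = 0.0249, adjusted p = 0.763). Per2 no longer passed the rule with libraries scaled to equal totals (log2 fold change 0.30), without control replicate 1 (0.36) or 2 (0.29), or without AF1 peptide replicate 1 (0.37) or 3 (0.32). Tef, a clock-controlled transcription factor, gave a log2 fold change of 0.32 (limma unadjusted p = 0.0486, adjusted p = 0.763) and Per3 gave 0.38 (limma unadjusted p = 0.0942). Per3 gave a log2 fold change of 0.57 without control replicate 4 (limma unadjusted p = 0.0097). The unadjusted p of Tef was above 0.05 in all fits that left out a mouse except those without control replicate 4 or AF1 peptide replicate 4, and it was 0.108 without AF1 peptide replicate 1. The part of time of day in the values of Cyp7a1 was not tested.

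**Figure D5:**
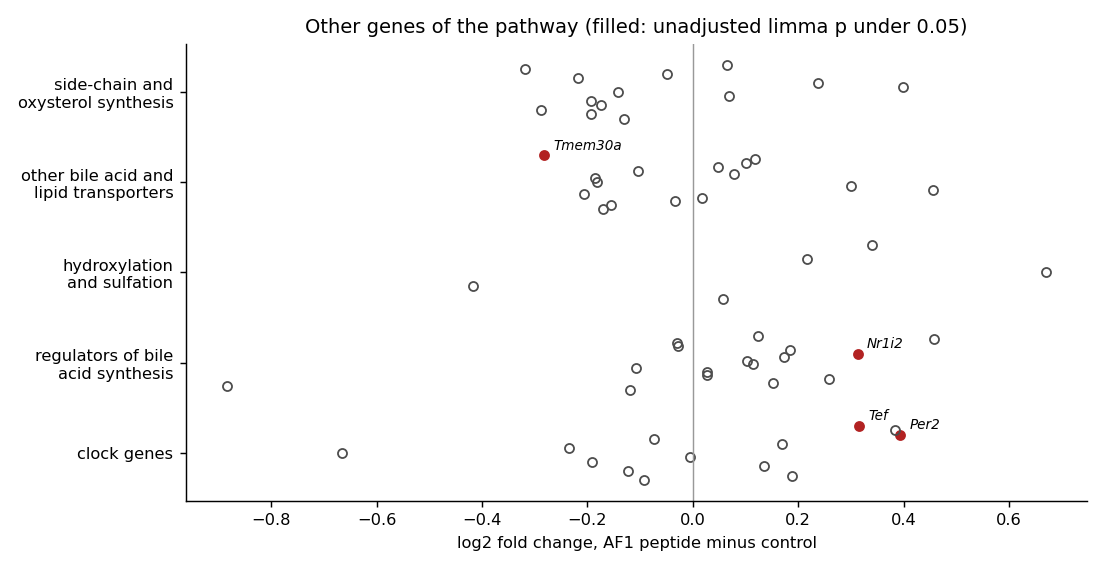
Log2 fold change (x axis, AF1 peptide minus control) of the 62 tested genes of the 5 pathway lists, with 1 point per gene and a row per list, the height within a row carrying no meaning. Filled red points mark the 4 genes with an unadjusted limma p under 0.05, Nr1i2, Per2 and Tef to the right of 0 and Tmem30a to the left.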

How the data were processed

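RNA-Seq libraries were made from the liver of 8 mice (4 control, 4 AF1 peptide), with groups and replicate numbers taken from the sample labels. The authors trimmed reads with Trim Galore 0.6.7, aligned them with HISAT2 and used SAMtools 1.17 for sorting and GenomicAlignments for counting reads over genes. The submitters' processing notes name the build mm39. The annotation, the strand setting and the treatment of reads shared between genes are not given in the sources used here. The authors deposited normalized read counts, a signal per gene and mouse, in which whole reads are divided by 1 size factor per library. Of 172256 values, 100% came out whole (within 0.01 read or a relative 1e-05).

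Groups were compared by limma 3.58.1 (R 4.3.3, intensity trend) on log2(normalized count + 1) over all genes with a mean of at least 10, and fold changes on this scale understate changes of low genes. A gene was called changed at an unadjusted p under 0.05 with more than a 1.3-fold change, and Benjamini-Hochberg adjustment ran over all 15989 genes. The fit was tested on simulated data. Members, pathway lists and markers were chosen with earlier results of these data known. All 10 members are named, with the 3 genes of smallest p in each pathway list and any called gene. Alternatives were pseudocounts of 0.5 and 5, other filters and scalings, no trend in limma, the own variance of each gene, a replicate block, edgeR 4.0.16 and DESeq2 1.42.0 on recovered reads, no fold threshold and leaving out each mouse. Exon lengths and sequences shared between genes (50-base words) came from GENCODE M21, in which Slc10a1 shared 0.957% of its words with other genes and the other members 0%. Permutation tests used scipy 1.17.1.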

Additional observations from a re-analysis of the deposited data

Results flagged for a closer look

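Within each group of 4 mice, the gap between the most extreme mouse and its nearest neighbour was set against the range of the group, and gaps above Dixon's 95% critical value were noted. This was done for 68 groups of values and noted 5 of them, where chance gives about 1 in 20 groups, or 3.4 of 68. Of the 10 bile acid genes, only Cyp7b1 was noted: control replicate 2 had a normalized read count of 63.0 against 106 in the nearest control mouse, a gap of 0.897 of the range. AF1 peptide replicate 1 was noted for Abcg5 (12327 against 4435 in the nearest treated mouse, 0.932 of the range) and for Nr1h3 (3316 against 2565, 0.904 of the range). The same mouse was noted on the first principal component of all genes (74.2 against -6.74, 0.843 of the range). The last was the depth of control replicate 1, with 45117528 recovered reads against 36673520 (0.857 of the range).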

How the results depend on the processing

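Of the 10 genes, 0 were called higher and 0 lower. By contrast, 1 was called higher under the replicate block (Cyp7a1, log2 fold change 0.61, limma unadjusted p = 0.00794) and 1 with no fold threshold (Cyp27a1), and with single mice left out 0 to 2 were called higher and 0 to 1 lower. The replicate numbers name different mice and were not used as pairs. Deviations of same-numbered mice correlated at 0.235, 0.0238, 0.216 and -0.064 for replicates 1 to 4. The mean was 0.103, against -0.0342 for mice of other numbers, and 4 of the 8 mice were closest to the mouse of the other group with their own number. Whether the numbers carry a shared effect was not tested. Of the pathway genes 1 was called higher, against 0 with equal totals or each gene's own variance, 3 with no fold threshold and 0 to 3 with single mice left out. None was called lower, against 1 with no fold threshold and 0 to 2 with single mice left out.

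Directions turned for Cyp8b1 (-0.60 to 0.055 with single mice left out, 0.048 without control replicate 1), Slc27a5 (-0.0074 to 0.34), Baat (-0.11 to 0.017), Abcb11 (-0.081 to 0.19, and -0.023 with equal totals) and Nr0b2 (-0.43 to 0.018). The cause was not tested. Cyp27a1 was higher under all 12 other settings and all 8 fits without a mouse, with an unadjusted p under 0.05 in 11 and 5 of them. Over all genes, limma called 286 higher and 304 lower, the replicate block 341 and 392, edgeR 344 and 283, and DESeq2 346 and 274. Equal totals gave 123 and 607, and 271 and 279 when mitochondrial genes were left out of the totals. The spread between 4 mice limits what can be shown, as for Cyp7a1, whose interval ran from 0.904-fold to 2.56-fold.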

Other observations

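Relations between the feedback genes were looked at over the 8 mice on the log2 scale, 5 in all, and were chosen after values had been seen. None passed at a permutation p under 0.05, before or after Benjamini-Hochberg adjustment. For Nr1h4 and Nr0b2, receptor and induced corepressor, Pearson's r was -0.533 (exact permutation p = 0.176, adjusted p = 0.791) and Spearman's rho -0.333 (exact permutation p = 0.428, adjusted p = 0.977), and r was -0.85 without the 2 mice farthest from the median of Nr1h4. For Nr0b2 and Cyp7a1, repressor and target, r was -0.223 (exact permutation p = 0.596, adjusted p = 0.791), rho was -0.214 (exact permutation p = 0.619, adjusted p = 0.977) and r was 0.0191 without the 2 mice farthest from the median of Nr0b2. For Cyp7a1 and Cyp8b1, both of the classic pathway, r was 0.142 (exact permutation p = 0.743, adjusted p = 0.791) and rho 0.0714 (exact permutation p = 0.882, adjusted p = 0.977), with r = -0.046 without 2 mice. The other 2 relations, Nr0b2 with Cyp8b1 (r = -0.122, exact permutation p = 0.791) and Nr1h4 with Abcb11 (r = -0.149, exact permutation p = 0.722), had an adjusted p of 0.791. Within a group, r over 4 mice is a description with no test. For Cyp7a1 and Cyp8b1 it had opposite signs, 0.7 in control and -0.839 in treated mice, which the pooled value does not show. For Nr0b2 and Cyp7a1 it was -0.833 and -0.0153, and for Nr1h4 and Nr0b2 0.172 and -0.503.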
